A study of Drosophila melanogaster with 2 samples.

Results

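The entries described here are the weak peaks of a Capicua ChIP-seq experiment: places where both libraries together gave a peak that stayed below the authors' reproducibility threshold. Members were taken from the relaxed peak list that the authors called on both replicates pooled, which holds 30000 entries on the dm6 build. An entry is weak when it overlaps no entry of the optimal list by 1 bp or more, the optimal list being the peaks past the authors' threshold on the irreproducible discovery rate (IDR). This left 20285 weak entries of 30000 in 16749 separate regions, beside 7152 optimal entries in 6120 regions. The other 2563 pooled entries are not optimal themselves but touch an optimal entry.

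The experiment was chromatin immunoprecipitation with sequencing from whole adult Drosophila melanogaster, with males and females pooled and the age given as unknown. The flies belong to a transgenic line, named cic-GFP in the labels, that stably expresses Capicua (cic) with GFP fused to its C-terminus, and the immunoprecipitation used an antibody against GFP. There is 1 group with 2 biological replicates, numbered 1 and 3, so no condition is compared with another. Whole flies mix all tissues, so a weak peak may be low occupancy in many cells or higher occupancy in few, and these cannot be told apart. The labels do not describe separate cultures, and p-values and intervals rest on counts of entries, as the lists carry no number of reads and library depth is not known.

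Capicua is a transcriptional repressor with an HMG box that represses genes downstream of receptor tyrosine kinases, and phosphorylation by ERK lifts that repression. It recognises the octamers TGAATGAA and TGAATGGA. In the embryo, the ovary and imaginal tissues its known targets include tll, hkb, ind, mirr, aos, pnt, stg and CycE. Relaxed peak lists are called permissively so that the IDR method can see both peaks and background, so such a list holds entries of both kinds by construction.

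The following weak entries are shown because they carry the highest scores among weak entries with a Capicua octamer within 100 bp of the summit. Each line gives the gene with the nearest protein-coding start and 20 bases on either side of the octamer, whose letters are in capitals, from the RefSeq Release 6 assembly, which is dm6.
Blimp-1: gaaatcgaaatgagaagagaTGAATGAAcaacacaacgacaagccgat
Nf1: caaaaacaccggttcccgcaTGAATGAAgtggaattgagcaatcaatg
CG6356: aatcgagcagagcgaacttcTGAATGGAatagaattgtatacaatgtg
toc: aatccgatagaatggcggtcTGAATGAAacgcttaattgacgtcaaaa
CG3021: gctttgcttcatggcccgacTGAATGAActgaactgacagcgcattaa
CG42795: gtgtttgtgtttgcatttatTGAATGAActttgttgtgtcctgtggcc
sima: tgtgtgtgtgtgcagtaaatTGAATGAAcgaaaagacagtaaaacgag
CG14130: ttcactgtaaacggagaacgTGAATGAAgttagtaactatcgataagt
The Blimp-1 sequence lies at chr3L:5632746-5632793 on the plus strand, in an intron 1725 bp from the start, under a summit that scored 115.67. Blimp-1 encodes a zinc-finger repressor. The Nf1 sequence, at chr3R:25983530-25983577 on the plus strand, belongs to a promoter entry of score 114.5, and Nf1 encodes neurofibromin, a GTPase-activating protein for Ras. The sequence near sima, which encodes the fly HIF-1α homologue, is at chr3R:30100698-30100745 on the minus strand in an intron. That of toc is at chr2L:3118803-3118850 on the plus strand, also in an intron. The remaining sequences come from promoter entries: CG6356 at chr3R:24282918-24282965 on the minus strand, CG3021 at chrX:1026666-1026713, CG42795 at chr3R:10226628-10226675 and CG14130 at chr3L:11815350-11815397, all but CG6356 on the plus strand. The octamer centre lay 1.5 bp from the summit at CG42795 and 87.5 bp from it at CG3021, the nearest and the farthest of the 8. All 8 entries were in the lists of both replicates.

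Members were chosen by score as well as by position, because all 7152 optimal entries are the highest-scoring of the pooled list. The score is a peak strength that the authors deposited, on a scale they do not define, and the differences in score that follow are descriptions. Weak scores ran from 30.7 to 115.82 with a median of 46.6 (quartiles 36.6 and 67.9), and optimal scores ran from 115.84 to 3067 with a median of 179.6. Just below the threshold, the weak entries nearest to Picot, CG34043 and NFAT scored 115.82, 115.82 and 115.79. Just above it, the optimal entries nearest to snRNP-U1-70K, skd and chic scored 115.84, 115.87 and 115.89. The scores form 1 continuous slope through the threshold, with no gap beside it. The deposited −log10 q-value reached its ceiling of 4.51 in 7577 weak entries (37.4%) and in all 7152 optimal entries. The median width was 480 bp in both sets.

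**Figure D1:**
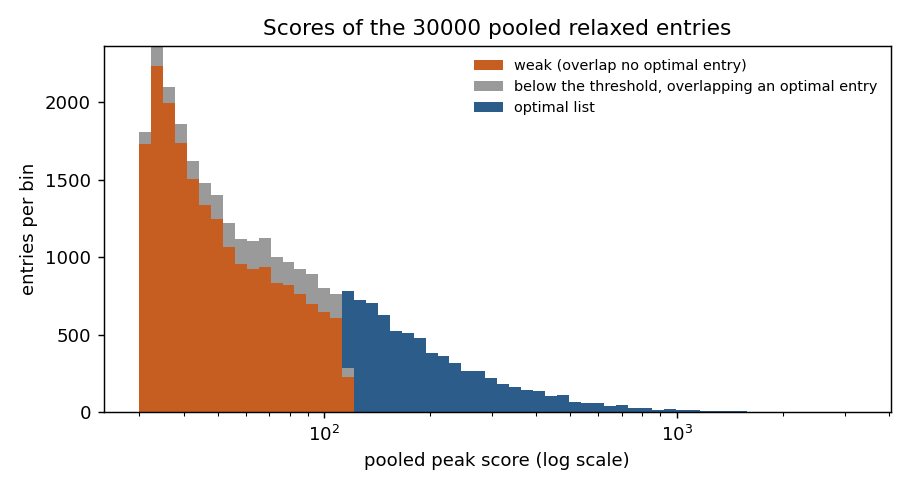
Number of pooled relaxed entries per bin of score, on a log axis, stacked by set. Weak entries reach up to 115.82, where the optimal list begins, and the entries that touch an optimal entry lie in the same range as the weak ones.

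Most weak entries were present in both replicates' own relaxed lists, but far from all. A match by at least 1 bp was found in both lists for 13252 weak entries (65.3%, exact 95% interval 64.7 to 66.0) and for 7122 optimal entries (99.6%). Another 3029 weak entries (14.9%) were in the list of replicate 1 alone and 3203 (15.8%) in that of replicate 3 alone, whereas 801 (3.95%) were in neither. No optimal entry was in neither list, and 18 were in that of replicate 1 alone and 12 in that of replicate 3 alone. The optimal list was set by a threshold on the agreement of these replicates, and its members are the highest-scoring pooled entries. Its high shares here, and its agreement in score below, cannot be told apart from that choice and are a description. The replicate lists of 30000 entries cover 9.18% and 9.06% of the bases of the 6 arms, and the pooled list was called on the same reads, so these shares are not independent evidence of binding. With a stricter match, a replicate summit within 100 bp of the pooled summit in each list, the shares were 39.4% of weak and 91.9% of optimal entries. A match that was only a replicate entry lying on an optimal peak accounted for 98 weak entries in replicate 1 and 77 in replicate 3.

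Where both lists held a weak entry, neither replicate dominated. The median score of the match was 32.0 in replicate 1, over 16281 weak entries, and 32.7 in replicate 3, over 16455. Of the 13252 weak entries in both lists, 90.3% had scores within 2-fold of each other, as had 94.4% of the 7122 optimal ones. Replicate 1 had the higher score in 48.4% of these weak entries and in 42.5% of the optimal ones. The weak entries in both lists had a median pooled score of 58.5, against 36.2 in the other weak entries.

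The 20 strongest weak entries lay at genes of varied function. Promoter entries stood near NFAT, a transcription factor related to the calcium-regulated NFAT proteins of vertebrates, with 57.0 in replicate 1 and 66.7 in replicate 3, and near sif, a guanine nucleotide exchange factor for Rac, with 78.9 and 36.1. Others were near Camta, a calmodulin-binding transcription factor (51.7 and 74.9), gw, the GW182 protein of microRNA silencing (84.1 and 54.8), g, a subunit of the AP-3 adaptor (81.4 and 43.3), and ND-ACP, the mitochondrial acyl carrier protein (45.2 and 72.3). Further promoter entries were nearest to Picot, CG34043, DEF8, CG8230, syd, a kinesin cargo adaptor, and Pfrx, a regulator of glycolysis. Intronic entries lay in or near hth, a homeodomain protein, 47185 bp from the start, and psq, a BTB-domain transcription factor, 1402 bp from it. The polarity gene scrib, the ETS activator pnt, CG33144, CG31635 and Blimp-1 had such entries too. The entry near CG14715 had its summit in a coding exon. Of the 20, 1 had a Capicua octamer within 100 bp of the summit, that near Blimp-1, beside 3.17% of all weak summits. Every one of the 20 was in both replicate lists, with pooled scores from 115.63 to 115.82.

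The question of where weak entries lie was asked of the summit, which the rule did not use except that places inside optimal intervals are closed to weak entries. A summit within 1000 bp of a transcript start belonging to a protein-coding gene was called promoter, and others were given to exons, introns or intergenic sequence. Promoters held 8753 weak summits (43.2%) and 4626 optimal ones (64.7%), a difference of -21.5 percentage points (Fisher's exact test, two-sided, Benjamini-Hochberg adjusted p = 1.58e-216). Promoter sequence so defined makes up 20.3% of the bases of the arms, below both shares. The nearest start was a median of 1359 bp from weak summits and 362 bp from optimal ones. The p-values here treat entries as independent, which neighbouring summits are not, and they cover counting error only. The difference was -11.8 points when only the stronger 50% of the weak entries were used (adjusted p = 8.60e-54 by Fisher's exact test).

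Coding exons held 1605 weak summits (7.91%) and 38 optimal ones (0.531%), which was the widest contrast in relative terms among the 6 classes (Fisher's exact test, adjusted p = 5.36e-162). Coding sequence outside promoters is 10.8% of bases. In the stronger 50% of weak entries the difference was 2.23 points instead of 7.38, and in the weak entries found in both replicate lists it was 3.66 points (added after seeing the data), each with an adjusted p below the threshold of 0.05. Weak entries in coding exons were present in both replicate lists in 34.6% of cases, against 65.3% of all weak entries. Their median score was 36.7, and the median GC content within 100 bp of the summit was 52.7%, against 43.3% for all weak entries. The part of base composition in the location of these entries was not tested. Either octamer lay within 100 bp of 14 of these 1605 summits (0.872%), and in 31 of their flanks (1.93%). The strongest coding-exon entries were near CG14715 (115.77), GramD1B (105.4, a pair of overlapping entries with 105.1 in the other) and CG4822 (104.8), named after their values were seen.

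Introns held 33.8% of weak and 26.7% of optimal summits (adjusted p = 2.97e-29), intergenic sequence 9.86% and 6.17% (adjusted p = 2.36e-22), and 3' UTRs 4.68% and 1.54% (adjusted p = 8.11e-38), all by Fisher's exact test. These classes make up 36.4%, 28.2% and 3.87% of bases. Intergenic sequence was thus below its share of bases in both sets. The intergenic difference of 3.69 points was 2.43 in the stronger 50% of weak entries and 2.32 in those found in both replicate lists. The 5' UTR outside promoters held 118 weak and 30 optimal summits, and its difference of 0.162 points missed the threshold (Fisher's exact test, adjusted p = 0.111). Of the weak summits, 8.28% had an optimal summit within 1000 bp and 51.9% within 5000 bp, with a median distance of 4678 bp. Of all bases outside optimal intervals, 6.42% lie within 1000 bp of an optimal summit and 23.6% within 5000 bp. These shares are a description with no test, since the rule sets how near a weak entry can lie to an optimal one.

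**Figure D2:**
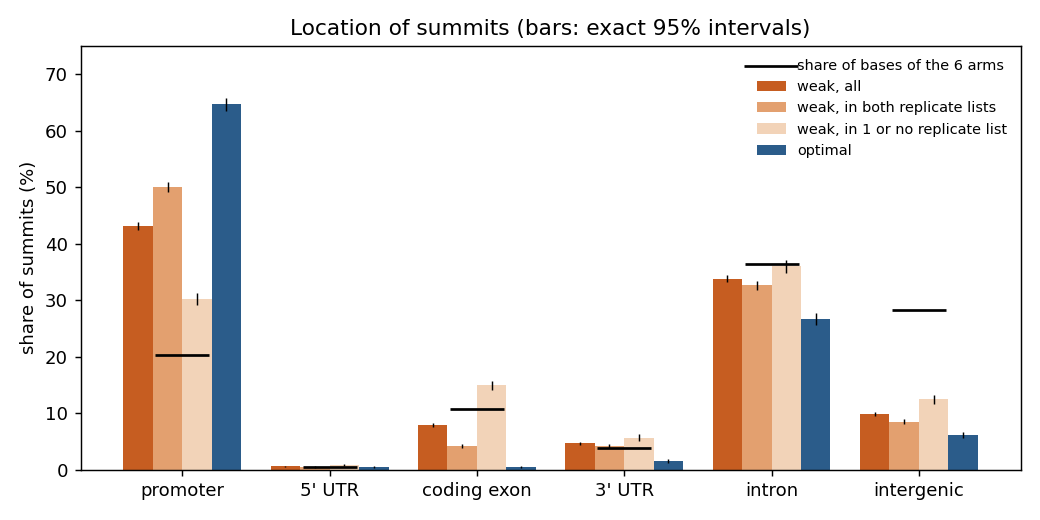
Share of summits in each of 6 location classes for all weak entries, weak entries in both replicate lists, weak entries in 1 or no replicate list and optimal entries, with exact 95% intervals; black lines give the share of bases. Promoter shares are 43.2%, 50.03%, 30.2% and 64.7% in that order, and coding exons are lowest in the optimal entries.

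Weak entries seen in both replicate lists lay at promoters more often than the other weak entries. The promoter share was 50.03% of 13252 against 30.2% of 7033, a difference of 19.8 points (two-sided Fisher's exact test, adjusted p = 1.77e-165). It was 8.35 points within the stronger 50% and 13.8 points within the weaker 50% of the weak entries, each past the threshold, in alternatives added after seeing the data. Replicate presence also moves with the score, and its part apart from the score was not tested further. Coding exons held 4.20% of the weak entries in both lists, 14.9% of the others and 20.97% of the 801 in neither list. Either octamer was found at 3.42% of the weak summits in both lists and at 2.70% of the others (Fisher's exact test, adjusted p = 0.00543). That call was lost inside each score range: the difference was -0.10 points in the stronger 50% (adjusted p = 0.851, Fisher's exact test) and 0.331 points in the weaker 50% (adjusted p = 0.315).

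Within the weak list, location followed the score. In quintiles of 4057 entries ordered by rising score, the promoter share was 30.2%, 33.1%, 41.2%, 51.1% and 60.2%. In the same order the share in both replicate lists was 25.6%, 41.3%, 70.1%, 91.1% and 98.5%, and the share in coding exons was 15.7%, 12.6%, 7.27%, 3.18% and 0.838%. The strongest weak quintile, with scores of 74.3 and above, thus stood close to the weakest quintile of the optimal list, where 65.7% of summits lay at promoters, 99.7% of entries were in both lists and 0.769% of summits lay in coding exons. Across the 5 optimal quintiles the promoter share stayed between 62.9% and 65.8%. These shares by score are a description, since score chose the members.

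**Figure D3:**
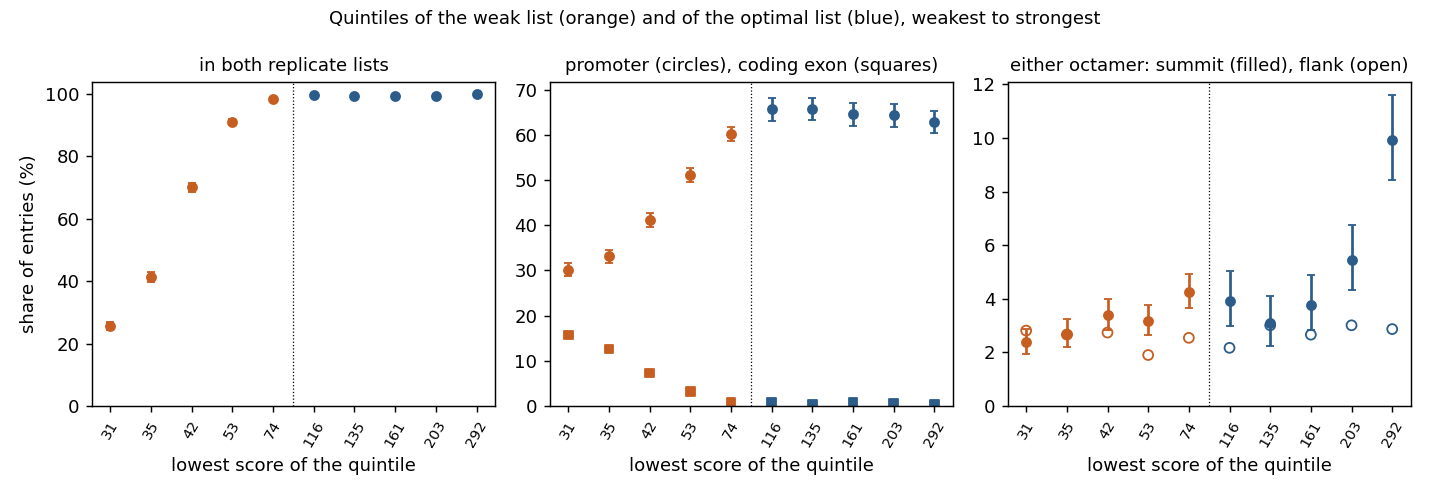
Share of entries (%) in each quintile of the weak list (orange) and of the optimal list (blue), ordered by score, with exact 95% intervals where drawn. From left to right the panels show presence in both replicate lists, promoter and coding-exon summits, and either Capicua octamer at the summit (filled) or in the flank (open); the weak promoter share climbs to 60.2% in the strongest weak quintile, and the octamer share lies above its flank in the stronger weak quintiles.

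The question of whether Capicua's own sequence lies under weak summits was tested against flanks of the same width, 201 bp, centred 1000 bp towards higher coordinates. All motifs were sought on both strands, with no mismatch. The octamer TGAATGAA was within 100 bp of 452 weak summits (2.23%) and in 344 flanks (1.70%, two-sided exact McNemar test, adjusted p = 0.000205). It was at 3.87% of optimal summits, more often than at weak ones (Fisher's exact test, adjusted p = 2.28e-12), and in 1.52% of all windows of this width in the genome. The weak excess of 0.532 points was 0.246 points within 50 bp of the summit, 1.17 points in the stronger 50% of weak entries and 0.996 points in those of both replicate lists. For TGAATGGA the weak shares were 1.01% at summits and 0.873% in flanks, a difference that missed the threshold (adjusted p = 0.197, exact McNemar test), and 1.45% of optimal summits had it (adjusted p = 0.00393, Fisher's exact test). Counted in bins of 50 bp, either octamer occurred 8.92 and 8.77 times per 1000 weak entries in the bins beside the summit. In the next bins outward it occurred 9.32 and 9.22 times, and 6.80 and 6.06 times at 450 to 500 bp. Beside optimal summits the values were 14.3 and 17.9, so the weak octamers were not centred on the summit as the optimal ones were. This profile is a description with no test. A match describes letters in a window and is not a bound site.

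Split by score, the excess of octamers passed the test in the stronger weak entries. Taking either octamer, the shares in the strongest quintile of the weak list were 4.24% at summits and 2.54% in flanks (exact McNemar test, adjusted p = 9.23e-05). In the second quintile they were 3.18% and 1.90% (adjusted p = 0.000723), but with the flank on the other side the difference there was 0.444 points and missed the threshold (adjusted p = 0.430, exact McNemar test). The third quintile had 3.38% and 2.74% (adjusted p = 0.175), the fourth 2.69% and 2.66% (adjusted p = 1.00) and the weakest 2.37% and 2.81% (adjusted p = 0.292), none past the threshold by the exact test. In optimal quintiles of rising score, 3.91%, 3.08%, 3.78%, 5.45% and 9.92% of summits had either octamer. In the same order their flanks had it in 2.17%, 3.01%, 2.66%, 3.01% and 2.87%. The octamer share thus did not rise steadily through the optimal list, and in its second weakest quintile it was close to that of the flanks. The split into quintiles was added after seeing the data, and whether the excess differs between quintiles was not tested.

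Sequences of core promoters and of other factors were also present. The DNA replication-related element (DRE), TATCGATA, lay at 2.24% of weak summits and 0.685% of flanks (adjusted p = 2.38e-39, exact McNemar test), and at 2.71% of optimal summits (adjusted p = 0.0354 for the difference between weak and optimal, Fisher's exact test). It is bound by DREF, a factor of housekeeping promoters. At weak promoter summits its share was 4.56%, against 0.960% in their flanks, and at the other weak summits 0.486%, against 0.477%. The DRE share was 3.91% at optimal promoter summits and 0.515% at the other optimal summits. Within promoters the weak share was thus the higher one, a comparison that was not tested. The core of Motif 1, GGTCACAC, another housekeeping promoter element, was at 1.87% of weak summits and 0.503% of flanks (adjusted p = 2.92e-38, exact McNemar test). At promoters its weak shares were 3.90% at summits and 0.663% in flanks. In the stronger 50% of weak entries the excess was 2.60 points for the DRE and 2.26 points for Motif 1, against 1.56 and 1.37 in all weak entries. In quintiles of rising score the DRE was at 0.887%, 1.26%, 1.75%, 3.20% and 4.12% of weak summits, and the promoter share rises in the same order. Across optimal quintiles of rising score the DRE share fell instead, with 4.12%, 3.78%, 2.59%, 1.75% and 1.33%. The promoter share there stayed between 62.9% and 65.8%. These sequences of weak promoter entries are shown with the promoter element in capitals, the strongest weak entry for each.
Pfrx: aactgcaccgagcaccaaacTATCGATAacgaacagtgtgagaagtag
CG5126: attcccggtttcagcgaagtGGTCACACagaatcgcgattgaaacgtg
NFAT: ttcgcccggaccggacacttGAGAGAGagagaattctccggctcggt
They lie at chrX:19505812-19505859, chr2L:1184051-1184098 and chrX:13642075-13642121, all on the plus strand.

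The element GAGAGAG, bound by GAGA factor, was at 4.97% of weak summits and 3.02% of flanks (exact McNemar test, adjusted p = 7.03e-24), and at 9.27% of optimal summits. The GATA site AGATAAG followed with 4.22% and 2.58% (adjusted p = 8.37e-20), the repeat CACACACA with 7.23% and 4.65% (adjusted p = 1.63e-28) and the octamer AACAGCTG with 2.95% and 1.46% (adjusted p = 2.45e-24), all by the exact McNemar test. Smaller differences were seen for the E-box CACGTG, at 3.29% of summits and 2.73% of flanks (adjusted p = 0.00151), and for TGACTCA, the AP-1 site, at 2.28% and 1.83% (adjusted p = 0.00176, exact McNemar test). The E-box difference missed the threshold in the stronger 50% of weak entries (0.454 points, adjusted p = 0.0853), and the AP-1 difference missed it with the flank on the other side (0.261 points, adjusted p = 0.0887, exact McNemar test). CAGGTAG, the site of the embryonic factor Zelda, was the reverse, at 0.991% of weak summits and 1.35% of flanks (adjusted p = 0.00151, exact McNemar test). The ETS site CCGGAAGT was at 0.301% and 0.335%, a difference below the threshold (adjusted p = 0.597, exact McNemar test), whose sign depended on the setting. Among all windows of the same width on the 6 arms, TGAATGGA was in 0.976%, TATCGATA in 0.564%, GGTCACAC in 0.430% and GAGAGAG in 2.45%. AGATAAG was in 2.33% of them, CACACACA in 4.09%, AACAGCTG in 1.19%, CACGTG in 2.36%, TGACTCA in 1.59%, CAGGTAG in 1.09% and CCGGAAGT in 0.371%. These motifs can overlap one another in a window, and each was counted on its own.

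**Figure D4:**
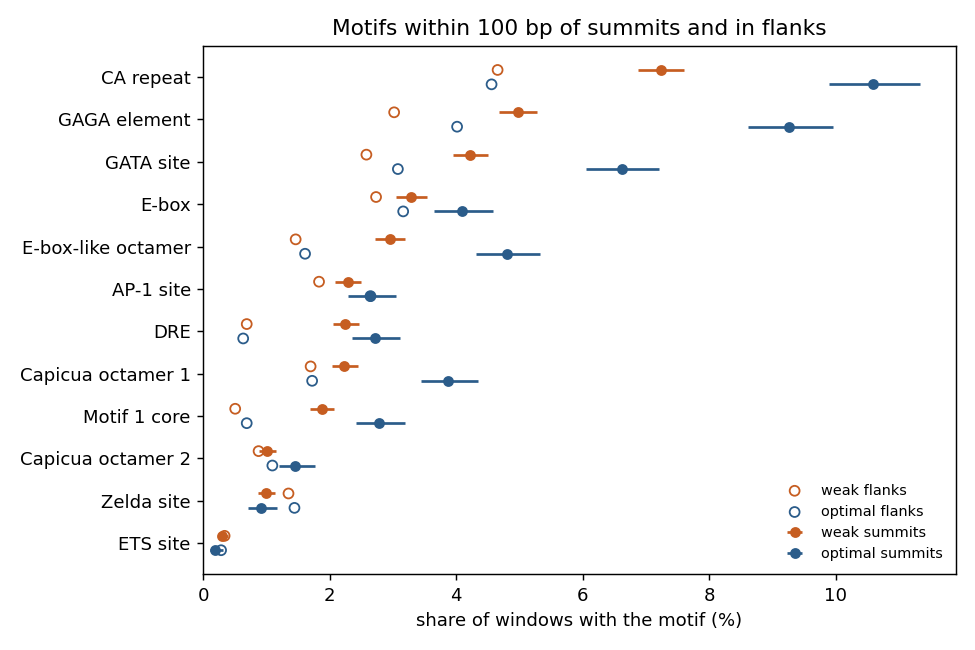
Share of 201-bp windows that hold each of 12 motifs, at weak and optimal summits (filled, exact 95% intervals) and in their flanks (open). The CA repeat is the most frequent at weak summits with 7.23%, and the DRE and the Motif 1 core stand well above their flanks in both sets.

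Weak summits spread over the arms in proportion to length more evenly than optimal ones. Between 144 and 158 weak summits lay on each Mb of every arm, whereas optimal summits ranged from 17.3 per Mb on chromosome 4 to 62.6 per Mb on 2R. The X held 17.003% of weak and 12.5% of optimal summits (two-sided Fisher's exact test, adjusted p = 2.82e-19). Chromosome 4, which is small and largely heterochromatic, held 0.947% and 0.322% (adjusted p = 6.19e-08), and 2R held 19.0% and 22.1% (adjusted p = 3.63e-08), both by Fisher's exact test. The differences on 3L (adjusted p = 0.0647, Fisher's exact test) and on 2L and 3R (adjusted p = 0.476 for each) missed the threshold. The X share fell between 15.6% and 19.3% in every quintile of the weak list, and it was 8.18% in the strongest and 16.4% in the weakest quintile of the optimal list.

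At the level of genes, 5081 of 13945 protein-coding genes (36.4%) had a weak promoter summit and no optimal one, 4257 (30.5%) had an optimal promoter summit and 4607 (33.0%) had neither. Another count is 6711 genes with any weak promoter summit, of which 1630 also had an optimal one. A gene with several starts has more sequence in its promoter windows: genes with a weak summit alone had a mean of 1.35 separate starts, those with an optimal summit 1.75 and those with neither 1.14. A gene with an optimal promoter summit cannot be in the weak group, so a list with a high optimal share has less room for a weak one. The shares over all genes are the background for the lists that follow, on which no test was run.

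Of 11 known Capicua targets, 5 had a weak promoter summit and no optimal one (45.5%, beside 36.4% of all genes). An optimal one was found at 2 (18.2%, beside 30.5%) and neither at 4 (36.4%, beside 33.0%). The weak entry at mirr, an Iroquois homeobox gene, scored 102.7 (61.2 in replicate 1 and 44.6 in replicate 3). The entry at aos, which encodes the EGFR antagonist Argos, scored 85.6 (61.6 and 32.7), and aos also had an optimal summit 2769 bp from its start with 139.2. The weak entry at stg, the Cdc25 phosphatase String, scored 44.2 (20.1 and 24.5). CycE, cyclin E, had 39.0 at its promoter, matched in replicate 3 alone with 33.7, and the gap gene hkb had 32.3, matched in replicate 1 alone with 21.6. The promoters of mirr and aos thus carried stronger entries than the rest, and the entry at hkb lay near the lowest weak score of 30.7. By contrast, pnt had a promoter peak of 939.1 and Ets21C one of 611.5 in the optimal list, with 0 weak promoter entries at either. The terminal gap gene tll and the homeobox gene ind, which Capicua is known to repress in the embryo, had no weak and no optimal promoter summit in these adult flies, and neither had zen or pip, the last of which is known to be controlled in the ovary through mirr.

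Some weak entries inside these known targets carried an octamer within 100 bp of the summit, and those shown were picked for it. Of the highest weak promoter entries at mirr, aos, stg, CycE and hkb, that of stg alone did. Either octamer lay at 3.17% of all weak summits. How many of the weak entries inside these genes carried one was not counted. Capitals mark the octamer nearest to the summit of the highest weak entry inside each gene that carried one.
aos: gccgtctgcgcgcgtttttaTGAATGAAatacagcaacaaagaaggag
pnt: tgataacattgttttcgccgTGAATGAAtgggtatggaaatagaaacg
CycE: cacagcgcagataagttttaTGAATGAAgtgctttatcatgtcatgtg
stg: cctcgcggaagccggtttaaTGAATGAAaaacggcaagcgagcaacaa
They lie at chr3L:16477937-16477984, chr3R:23332566-23332613, chr2L:15737537-15737584 (minus strand, the others plus) and chr3R:29254590-29254637. The aos entry, in an intron 5776 bp from the start, scored 91.6 (35.4 in replicate 1 and 67.3 in replicate 3). The intronic CycE entry scored 73.6 (40.1 and 29.7), above its promoter entry, and the intronic pnt entry scored 76.6, with a match in replicate 3 alone (54.0). The stg sequence belongs to its promoter entry. The body of pnt held 14 weak and 11 optimal summits, that of aos 5 and 2, that of CycE 4 and 0, and those of mirr and pip 2 and 0 each.

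Among signalling pathways, genes of receptor tyrosine kinase and ERK signalling had a weak promoter summit alone in 16 of 45 (35.6%, beside 36.4% of all genes). An optimal one was found in 21 (46.7%, beside 30.5% of all genes) and neither in 8 (17.8%, beside 33.0%). The weak group held pyr, a ligand of the FGF receptor Heartless (114.1), the adaptor of that receptor, stumps (113.0) and Ras85D, the Ras GTPase (99.8, matched in replicate 1 alone). In BMP signalling 4 of 15 were weak and 9 optimal: the weak group held the type II receptor put (102.2), the inhibitory Smad Dad (97.6) and the ligand gbb (80.0). Hippo signalling had 2 of 14 weak, the coactivator yki (105.2) and the scaffold sav (58.1), and 9 optimal. In Notch signalling 9 of 16 were weak and 5 optimal, with Su(H), the DNA-binding effector, at 80.5, Psn, presenilin, at 70.4 (matched in replicate 1 alone) and the target E(spl)mbeta-HLH at 70.1. Wnt signalling had 9 of 20 weak and 8 optimal, with the receptor fz3 (93.0), the adaptor lgs (81.6) and the cytoplasmic transducer dsh (63.0). JAK/STAT signalling had 5 of 12 and 6, with the PIAS homologue Su(var)2-10 (115.2), the phosphatase Ptp61F (100.5) and the kinase hop (68.5). Toll and IMD immunity had 10 of 26 and 15, with the kinases IKKbeta (92.2) and Tak1 (82.2) and the recognition protein PGRP-SD (83.7). The Hippo list thus had the smallest weak share of these 7 lists, beside the greatest optimal share (64.3%). The Notch list had the greatest weak share, beside the smallest optimal one (31.25%).

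Next come lists of tissue identity and patterning, whose weak shares lay on both sides of the 36.4% of all genes. Of 25 synaptic and neuronal genes, 18 (72.0%) had a weak promoter summit alone and 1 an optimal one, with brp, the active-zone protein Bruchpilot, at 112.7, the microtubule-associated futsch at 85.8 and the potassium channel Sh at 78.2. Gap and pair-rule genes had 11 of 21 weak and 1 optimal, led by hb (106.0), cad (95.1) and odd (80.0), and Hox genes had 2 of 8 weak, Antp (39.1) and Abd-B (35.5, matched in replicate 1 alone), and 0 optimal. Muscle and sarcomere genes had 11 of 20 and 3, with the flight-muscle actin Act88F (82.6), Zasp66 (68.2) and flr (67.7). Photoreceptor genes had 7 of 20 and 2, with the phospholipase C norpA (95.03), santa-maria (69.2, matched in replicate 3 alone) and ninaB (57.2). Gut digestive enzymes had 11 of 22 and 8, with Mal-A4 at 108.8, and the trypsin genes alphaTry and epsilonTry shared 1 entry of 91.5. Testis genes had 5 of 18 and 2, with the Cdc25 phosphatase twe at 94.7, mia at 70.5 and achi at 59.0, and chorion and yolk genes 6 of 17 and 3, with Cp19 at 92.5, Cp15 at 77.5 (matched in replicate 3 alone) and Cp38 at 65.7. The neuronal list had the greatest weak share of the 23 lists, and it stood beside an optimal share of 4.00%.

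The remaining lists cover general cell functions, hormone, stress and clock genes and a pair of large gene families. All 23 cell cycle genes had a promoter summit, 16 of them (69.6%) weak alone and 7 optimal, with the kinase aurB at 107.9, twe again and CycB, cyclin B, at 86.0. Of 81 cytoplasmic ribosomal protein genes, 22 were weak alone and 58 (71.6%) optimal, the weak ones led by RpS27A (115.4), RpL36A (113.3) and RpL9 (111.2). Ecdysone response genes had 4 of 18 weak and 12 optimal, with Eip78C at 88.97, Hr3 at 83.9 and br at 62.9. Heat shock proteins had 2 of 19 weak, Hsp23 (76.8) and Hsp67Ba (73.0), and 11 optimal. Clock genes had 2 of 12 weak, jet (68.7) and the kinase dco (64.0), and 9 optimal. Chemosensory receptors had 22 of 179 weak (12.3%) and 7 optimal, with Gr32a at 112.1, Gr97a at 102.2 and Ir25a at 85.3, and Cpr cuticle proteins 9 of 70 weak (12.9%) and 1 optimal, with Cpr49Aa at 70.2, Cpr62Ba at 62.8 and Cpr67Fb at 54.9 (matched in replicate 1 alone). Neither kind of promoter summit was found at 83.8% of the chemosensory receptor genes and at 85.7% of the Cpr genes.

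**Figure D5:**
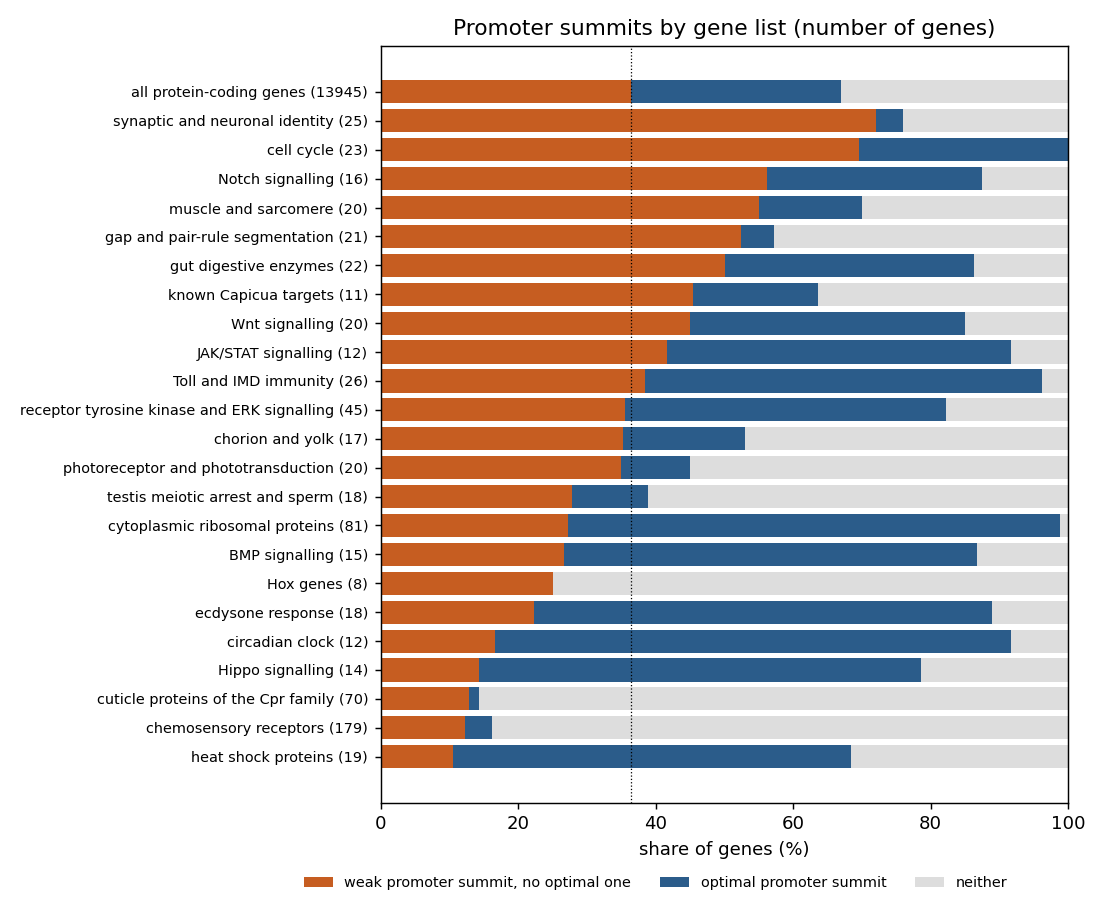
Share of genes (%) with a weak promoter summit and no optimal one, with an optimal one and with neither, for all 13945 protein-coding genes and 23 lists, ordered by the weak share. The dotted line is the 36.4% of all genes, and 72.0% of the neuronal list lies in the weak group. The heat shock, chemosensory and cuticle lists have the lowest weak shares. The heat shock list is mostly optimal (57.9%), whereas the other lists named mostly have neither (83.8% and 85.7%).

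The genes with the most weak summits in their bodies were long. The most lay in sbb, a transcriptional corepressor, with 48 weak and 9 optimal summits over 79099 bp, and in bun, a TSC22-domain protein, with 47 and 23 over 91072 bp. Next came Glut4EF with 44 weak and 22 optimal and the overlapping annotation CG46467 with 43 and 22, which share most of their summits, and Eip75B, an ecdysone-induced nuclear receptor, with 43 and 17. Each of these ranks among the 138 longest protein-coding genes, and weak summits per 10 kb ran from 3.65 in Glut4EF to 6.07 in sbb. Over all gene bodies together the value was 1.75, but these genes were picked for their count of weak summits, which favours a high density. The density of long genes as a class was not taken. Between 30 and 34 of the weak summits of each were in both replicate lists.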

How the data were processed

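Per the text lists deposited with the samples, the authors called relaxed peak lists for each replicate and for both pooled, and an optimal IDR list, on dm6 and dm3, from alignments with a control. For the aligner and the peak caller, names and settings were not given in the sources used here. Column 7, the authors' deposited score, ranks and describes peaks; the deposited −log10 q-value has a ceiling and was used only to count entries there. Sonicated fragments were of 200 to 800 bp, per the labels.

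Coordinates are dm6, written 1-based, and genes come from Ensembl release 115. Where a summit met several classes, the promoter took precedence, then UTRs and coding exons, then introns. For gene counts, a summit was given to every protein-coding gene that starts within 1000 bp of it. A match is the highest-scoring replicate entry overlapping by 1 bp, so neighbouring entries may share a replicate score. Of the weak summits, 1 lies outside its interval, and 441 optimal entries repeat an interval; both were used as given. Benjamini-Hochberg adjustment ran within each family of tests, with a threshold of 0.05, and intervals are exact (Clopper-Pearson). The tests were checked on simulated data. Alternatives changed the definition of weak, the match, the promoter distance, the window, the flank, the score range, the replicate and the counting of neighbouring summits. Tools were Python 3.11.15 with scipy 1.17.1, pandas 2.3.3, numpy 2.4.6 and matplotlib 3.10.9.

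Members, lists and tests were chosen with earlier results of these data known. Named genes are those nearest to the 20 strongest weak entries, all Capicua targets, up to 3 members of each other list with the highest weak promoter summit and no optimal one, the 5 genes with the most weak summits and those of printed sequences. List members were matched by symbol, and ribosomal, chemosensory and cuticle genes by a pattern of their symbols. No sequence from arm 2R is printed. The symbols mir-ban (in 2 lists), Dl, Dpt and Trh matched no protein-coding gene and were left out.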

Additional observations from a re-analysis of the deposited data

How the results depend on the processing

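Under the alternatives, 180 recomputed results were counted as kept. A tested difference was kept when its direction and its side of the threshold stayed the same, and a count when its size stayed within the limits set. Among those kept were all 48 of the location classes and all 6 of the arms. So were the 3 counts each of weak entries (19813 with the dm3 lists, 21310 and 22848 with other definitions) and of genes. The octamer difference between weak entries in both lists and others cannot change with the promoter distance, yet that setting is counted as kept. The size of a tested difference was not judged, and some shrank, as the promoter and coding-exon differences did in the stronger 50% of weak entries. The promoter share was 44.0% with weak defined by 50% overlap, 45.6% by score alone, 32.6% with a promoter distance of 500 bp and 80.1% with 5000 bp. The share in both replicate lists was 66.9% and 69.2% under those 2 definitions, 57.4% with a match by 50% overlap and 39.4% by summits. By the exact McNemar test, in percentage points of summit minus flank, the E-box gave 0.454 in the stronger 50% of weak entries (adjusted p = 0.0853), AP-1 gave 0.261 with the other flank (0.0887), and the ETS site turned to 0.00986 within 50 bp and 0.0119 with 1 summit per region; leaving out a replicate gave -0.079 to 0.0197 for the ETS site. Weak minus optimal for the ETS site was 0.187 with 1 summit per region, past the threshold (Fisher's exact test, adjusted p = 0.0201). Either octamer, in both lists minus other weak entries, was -0.10 points in the stronger 50% and 0.331 in the weaker 50%. By quintile of weak score, the octamer difference from flanks was 0.444 in the second with the other flank, -0.17 in the fourth within 50 bp and 0.271 in the weakest with the other flank. The cause was not tested. No paired analysis was possible because there is 1 group. Without read counts, no limit of detection can be set for a gene that lacks a peak.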

Other observations

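Weak summits also lay at starts of non-coding genes, which the comparisons above leave out. Of 290 tRNA genes, 137 (47.2%, exact 95% interval 41.4 to 53.2) had a weak summit within 1000 bp and no optimal one, and 64 (22.1%) had an optimal one. Of 269 snoRNA genes, 96 (35.7%) were weak alone and 61 (22.7%) optimal, and of 32 snRNA genes 7 were in each group. Longer non-coding RNA genes, annotated as ncRNA, had 828 of 3261 weak (25.4%) and 481 optimal (14.8%). Pseudogenes had 40 of 268 weak (14.9%) and 15 optimal. Annotated transposable elements had 626 of 5809 weak (10.8%) and 194 optimal (3.34%), and none of the 99 rRNA genes on the 6 arms had either. Entries at these genes can also belong to a protein-coding neighbour, and the assignment of reads to single copies of repeated genes was not tested. Genes that lie close together can share a summit, so the interval given covers counting error only. These shares stand without one over all non-coding genes, so none is called high or low.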
